A study of Mus musculus with 5 samples.

Results

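NDGA (nordihydroguaiaretic acid) was compared with its absence in the liver of chow-fed ob/ob mice, by setting the array of ob/ob mice on chow with NDGA against the array of ob/ob mice on plain chow. These are 2 of the 5 arrays of the study, and each diet group of each genotype has 1 array. The ob/ob mice carry the obese mutation of the leptin gene on a C57BL/6 background, so both ob/ob groups lack functional leptin and the comparison asks what NDGA in the food did within leptin deficiency. NDGA was given at 2.5 g per kg of food for 16 weeks; the plain-chow ob/ob mice were kept on their diet for the same 16 weeks. The other 3 arrays are of wild-type (WT) C57BL/6 liver, from mice on chow (the study's control), on a high-fat diet, and on a high-fat diet with NDGA at the same 2.5 g per kg of food, again for 16 weeks. The labels say that RNA came from 3 animals of each group but not whether it was pooled, and they give neither age nor sex. With 1 array a side no test can be made, so every difference below describes 2 arrays and carries no replicate error.

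NDGA is a plant lignan of the creosote bush, known as an antioxidant and as an inhibitor of lipoxygenases, the enzymes that make leukotrienes and related fatty acid products. The study's title names PPAR-alpha, the nuclear receptor that responds to fatty acids in liver and switches on their oxidation in peroxisomes, mitochondria and the endoplasmic reticulum. Liver of ob/ob mice is fatty, because these mice overeat and their livers make fatty acids at a high rate. NRF2, the transcription factor that responds to oxidants and electrophiles, binds antioxidant response elements near genes of glutathione and quinone metabolism.

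Once genes set by a probe bright on a lone array are put aside, the gene lowest with NDGA relative to ob/ob chow was Osgin1. It is an oxidative stress-induced growth inhibitor known as an NRF2 target. Its upstream sequence is shown because such targets are usually read through the antioxidant response element near their start. The sequence is the 250 bases before the RefSeq start of Osgin1 in GRCm38.p6, at chr8:119436897-119437146 on the plus strand. The capitals mark TGACTCA, a core that antioxidant response elements share with AP-1 sites, found 97 to 91 bases before the start.

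Osgin1: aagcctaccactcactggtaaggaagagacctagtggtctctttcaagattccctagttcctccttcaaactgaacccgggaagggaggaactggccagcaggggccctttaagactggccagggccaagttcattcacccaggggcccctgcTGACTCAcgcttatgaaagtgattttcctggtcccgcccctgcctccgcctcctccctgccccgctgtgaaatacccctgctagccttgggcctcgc

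The core was searched on both strands of windows from 250 bases before to 50 after each start, and 1709 of 32851 RefSeq windows (5.20%) held it. Of the 6731 expressed genes with a window, 354 held it (5.26%), as did 28 of the 456 genes called higher and 1 of the 33 called lower that had a window. The counts for called genes, 28 of 456 and 1 of 33, lie near the share among expressed genes. Of the 10 genes that stood apart the same way in both NDGA comparisons, 7 had a window. How many of those 7 held the core is not given here. A match describes letters in a window and is no site. This core was chosen after the values had been seen, and after searches for a longer antioxidant element and for PPAR direct repeats, which are not shown here.

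Values were deposited as linear intensities with unequal levels. The median intensity over probes was 71.0 on the ob/ob NDGA array and 38.1 to 47.0 on the other 4, and 60 probes were at the scanner limit (65000 or more) against 16 to 32 elsewhere. All 5 arrays were therefore brought to a common distribution by quantile normalization, and differences were taken on log2(intensity + 50). A level below is a quantile-normalized intensity, and it is compared only with the same probe on another array. A difference is log2 of ob/ob NDGA minus log2 of ob/ob chow, and a gene is called higher or lower where it is at least 1, which is 2-fold, in size. Of 16637 genes, 8319 were expressed, meaning that the mean of the 2 arrays reached the median over genes, and 8308 remained once 11 that were saturated on both arrays had been left out.

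The ob/ob liver array with NDGA read higher for many more genes than it read lower. There were 561 genes higher (6.75% of those compared) and 42 lower (0.506%), so 93.0% of the calls were higher, although the median difference over all genes was -0.09. The distribution was lopsided: 39.1% of genes lay between -0.5 and 0, while 5.63% lay between 1 and 1.5. With genes ordered by brightness into 4 equal groups, 4.72% of the dimmest group were called higher, 7.46% and 8.04% of the middle groups and 6.79% of the brightest. The ob/ob NDGA array was the brightest of the 5 for 31.8% of genes, against 46.9% of the 597 expressed genes of 35 metabolic, stress and immune lists. Of those 597 listed genes, 100 were higher and 2 lower, with a median of 0.31. Of the 35 lists 33 had 0 genes lower, which says little about a list where 0.506% of all genes were lower. Of 2462 probes that passed the filter but have no gene name, 4.26% were higher and 0.569% lower.

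How many genes stood apart depended on the scaling. Without normalization 2698 genes were higher and 5 lower (32.5% and 0.0602% of genes), so 99.8% of calls were higher, and the median difference was 0.68. Median scaling gave 1242 and 6 (14.9% and 0.0722%), with 99.5% of calls higher and a median of 0.23. Loess gave 791 and 18 (9.52% and 0.217%), with 97.8% of calls higher and a median of 0.03. Scaling to housekeeping genes gave 135 higher and 1302 lower (1.62% and 15.7%), with 9.39% of calls higher and a median of -0.56. That scaling sets the median level of all housekeeping probes equal, and under it the expressed housekeeping genes themselves had a median difference of -0.51. When the unnormalized differences were instead shifted so that the housekeeping median was 0, a setting chosen after seeing the data, 665 genes were higher and 18 lower, with 97.4% of calls higher and a median of -0.05. The balance of calls turned under the first of these housekeeping settings alone, and what scaling these arrays need was not tested. Differences are best read against the median of all genes: 31 of the 35 lists had a median above it, and 29 did so under each of the 5 scalings. No normalization, median scaling and housekeeping scaling differ only by a constant per array. For that count they are therefore the same setting, and the lists were chosen with earlier results of these data known. A list median above 0 under all 5 was found for 13 lists: peroxisomal and mitochondrial fatty acid oxidation, lipogenesis, triglyceride synthesis, cholesterol synthesis, glycolysis, the TCA cycle, amino acid breakdown, NRF2 targets, conjugation enzymes, acute phase proteins, ribosomal proteins and the proteasome. The other 22 medians were below 0 under at least 1 scaling. The 561 genes were all among those higher without normalization, with median scaling and with loess, and 134 of them were also higher with housekeeping scaling. Osgin1, Dennd4b, Entpd6, Slc39a2 and Krtap7-1 were lower under all 5 scalings. The last 3 of these were set by a bright probe on the ob/ob chow array alone, where they read 22.3, 9.14 and 63.3 times their next brightest array. On the NDGA array the same held for Olfr1338, Miip and Col6a3, at 66.3, 6.03 and 4.73 times.

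**Figure D1:**
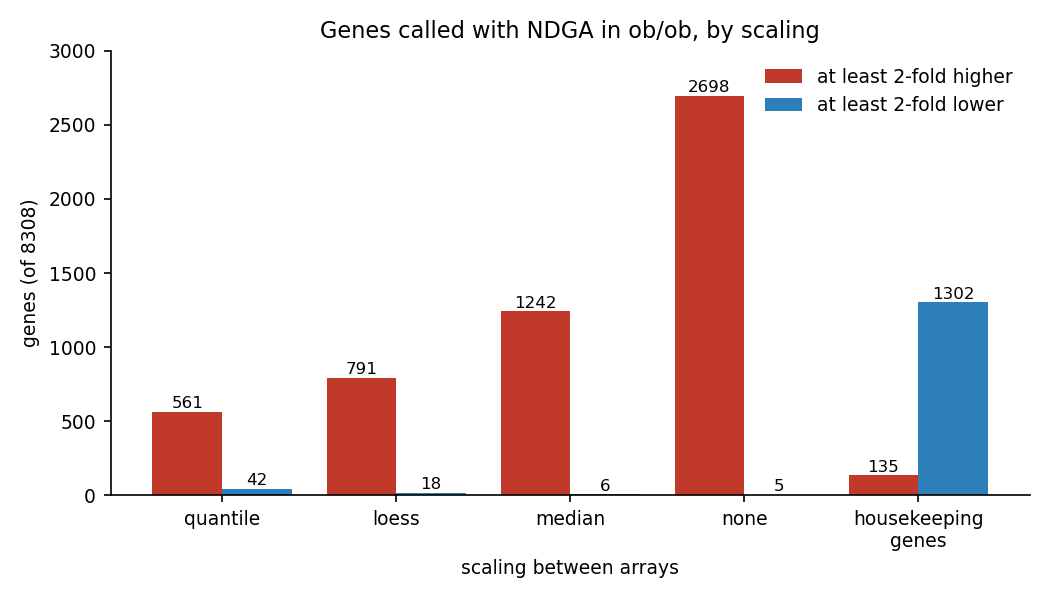
Bars give the number of genes at least 2-fold higher (red) or lower (blue) on the ob/ob NDGA array, of 8308, on a linear axis, for each scaling between arrays. Quantile normalization gave 561 and 42, and housekeeping scaling turned the balance to 135 and 1302.

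Genes of fatty acid oxidation under PPAR-alpha held the gene with the highest difference that was not set by a probe bright on the NDGA array alone. Cyp4a14, an omega-hydroxylase of fatty acids and a classic PPAR-alpha target, read 859 on WT chow, 1396 on WT high-fat diet, 3121 on WT high-fat diet with NDGA, 856 on the ob/ob chow array and 4522 on the ob/ob NDGA array. Both NDGA arrays were above the other 3, and the ob/ob difference was 2.34, or 5.05-fold. The other expressed CYP4 enzymes were below 0. Cyp4f14, a hydroxylase of leukotrienes and long-chain fatty acids, read 12318 on ob/ob chow and 5498 with NDGA, against 25474 on WT chow, 13227 on high-fat diet and 13793 on high-fat diet with NDGA. Its difference was -1.16, with the ob/ob NDGA array the lowest of the 5. Of the 5 expressed CYP4 genes only these passed 2-fold, and the list median was -0.33. Cyp4f18 differed by -0.64, Cyp4f13 by -0.33 and Cyp4v3 by -0.13, while Cyp4a10, the close relative of Cyp4a14, was saturated on both arrays and has no difference. Below the expression limit, Cyp4f15 differed by 0.87 and Cyp4f16 by 0.35. Without normalization the Cyp4f14 difference shrank to -0.09, while that of Cyp4a14 was 3.30.

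Peroxisomal fatty acid oxidation had 10 of 26 expressed genes higher and 0 lower, with a median of 0.67. Ehhadh, the bifunctional enzyme of peroxisomal beta-oxidation, read 212 on WT chow, 257 on high-fat diet, 724 on high-fat diet with NDGA, 187 on the ob/ob chow array and 655 on the ob/ob NDGA array. Again only the NDGA arrays were high. Decr2, the peroxisomal dienoyl-CoA reductase, read 887, 2234 and 1687 on the 3 WT arrays in that order, 892 on the ob/ob chow array and 3243 on the ob/ob NDGA array, a difference of 1.81. Pex11a, which drives peroxisome division, differed by 1.32, and Abcd3, which carries fatty acids into the peroxisome, by 1.28. Others above 1 were Acot4 (1.52), Slc25a17 (1.28), Nudt7 (1.24), Acaa1a (1.13), Pex16 (1.06) and Eci2 (1.04). Members that did not stand apart included the peroxisomal thioesterase Acot8 (0.24), the branched-chain oxidase Acox2 (0.14), catalase (Cat, -0.10) and the transporter Abcd2 (-0.38). Acaa1b, the second peroxisomal thiolase, was saturated on the NDGA array only. Its difference of 0.62 is uncertain, because the normalized level of a saturated probe follows its rank among saturated probes.

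In mitochondrial fatty acid oxidation 8 of 16 expressed genes were higher and 0 lower, and the median of 0.94 was the highest of the 35 lists. The short-chain dehydrogenase Acads read 172 on WT chow, 296 on high-fat diet, 166 on high-fat diet with NDGA, 145 on the ob/ob chow array and 524 on the ob/ob NDGA array, a difference of 1.56. The ob/ob NDGA array was the brightest of the 5 for 12 of the 16 genes, and both WT diets without NDGA exceeded the WT NDGA array for Acads. Hadh differed by 1.51, Eci1 by 1.30, Cpt2 by 1.18, Acadl by 1.13, Etfa by 1.09, Slc25a20 by 1.03 and Acadm by 1.00. Cpt2 and Slc25a20 bring acyl groups into the mitochondrion, Acadl and Acadm are long- and medium-chain dehydrogenases, and Etfa passes the electrons on. Hadha, a subunit of the trifunctional protein, differed by -0.33 and Decr1, the mitochondrial dienoyl-CoA reductase, by -0.49. Cpt1a, the carnitine palmitoyltransferase that controls entry, was below the expression limit, with levels of 49.6 on ob/ob chow and 92.8 with NDGA. For Hadh, the second probe read -0.18, so its value rests on the brightest probe.

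PPAR-alpha itself was near the same level on both arrays. Ppara read 682 on WT chow, 854 on high-fat diet, 673 on high-fat diet with NDGA, 578 on the ob/ob chow array and 643 on the ob/ob NDGA array, a difference of 0.14. Among 18 nuclear receptors and cofactors of lipid metabolism 2 were higher (11.1%) and 0 lower, beside 6.75% and 0.506% of all genes. The 2 were Nr1i3 (the receptor CAR, 1.15) and Nr1h3 (the oxysterol receptor LXR-alpha, 1.12). Pparg, abundant in fatty liver, read 1220 on ob/ob chow and 925 with NDGA, a difference of -0.38. The retinoid partners Rxra and Rxrg differed by -0.61 and -0.53. Of 14 genes of ketogenesis and fasting, 2 were higher (14.3%), Txnip (1.53), which restrains glucose uptake, and Gpd1 (1.36), the cytosolic glycerol-3-phosphate dehydrogenase. Fgf21, the liver's fasting hormone, differed by 0.41, Angptl4, an inhibitor of lipoprotein lipase, by 0.89, and Fabp1, the liver fatty acid binding protein, by -0.53. For Angptl4 the second probe was at -0.02.

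**Figure D2:**
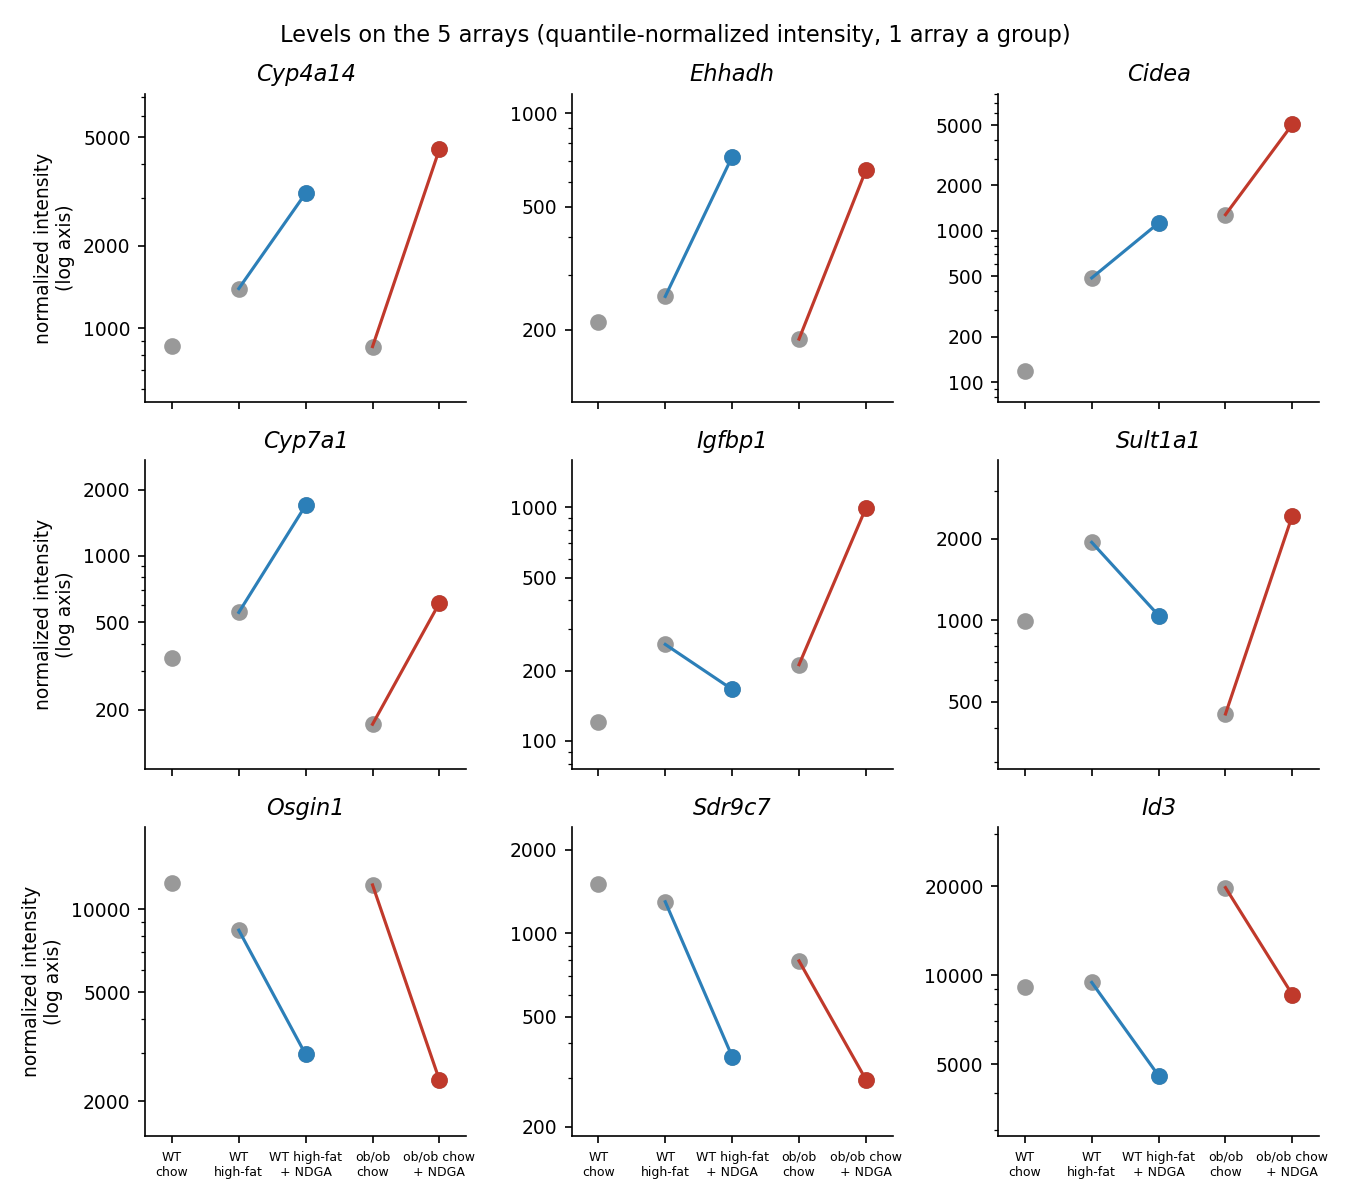
Points give the quantile-normalized intensity of 9 genes on the 5 arrays, 1 array a group, on a log axis of its own for each gene; red lines join ob/ob chow to ob/ob NDGA and blue lines join WT high-fat diet to WT high-fat diet with NDGA. Cyp4a14, Ehhadh, Cidea and Cyp7a1 were higher and Osgin1, Sdr9c7 and Id3 lower with NDGA in both pairs, while Igfbp1 and Sult1a1 were higher in the ob/ob pair alone.

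The TCA cycle had 7 of 18 expressed genes higher and 0 lower, with a median of 0.69. Idh2, the mitochondrial NADP-dependent isocitrate dehydrogenase, read 148 on WT chow, 252 on high-fat diet, 229 on high-fat diet with NDGA, 181 on the ob/ob chow array and 854 on the ob/ob NDGA array. The ob/ob NDGA array stood alone, at a difference of 1.97. Fumarase (Fh1) differed by 1.75, malate dehydrogenase (Mdh2) by 1.53, Idh3g by 1.48, Dlst by 1.22, Sdhb by 1.14 and Idh3a by 1.12. Citrate synthase (Cs) differed by 0.31 and the pyruvate dehydrogenase subunits Pdha1 and Pdhb by -0.18 and -0.06. In oxidative phosphorylation 7 of 41 genes were higher and 0 lower, with a median of 0.38. The ATP synthase subunits Atp5d (1.74), Atp5a1 (1.37), Atp5b (1.12) and Atp5e (1.02) were among them, with Ndufa6 (1.49) and Ndufa5 (1.36) of complex I. Other ATP synthase subunits did not pass 2-fold: Atp5j differed by 0.41, Atp5c1 by 0.14 and Atp5g3 by -0.09. Complex IV subunits ranged from Cox7b at 0.49 to Cox6a1 at -0.32. Under housekeeping scaling the median of this list was -0.05, and those of the TCA cycle and of mitochondrial oxidation were 0.14 and 0.52.

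The lists of genes that make fatty acids and triglycerides also had medians above that of all genes. In de novo lipogenesis 4 of 20 expressed genes were higher and 0 lower, with a median of 0.63. Scd2, a stearoyl-CoA desaturase, read 323 on WT chow, 485 on high-fat diet, 388 on high-fat diet with NDGA, 1405 on the ob/ob chow array and 3220 on the ob/ob NDGA array. Both ob/ob arrays were above all WT arrays, and NDGA read higher still, by 1.17. Fatty acid synthase (Fasn) showed the same order with a smaller gap: 4148, 6386 and 3856 on the WT arrays, 8865 on ob/ob chow and 13422 with NDGA, a difference of 0.60. Fads1, the delta-5 desaturase, differed by 1.26, Acly, which makes cytosolic acetyl-CoA, by 1.12 and Mid1ip1 by 1.04. Acaca differed by 0.20, the citrate carrier Slc25a1 by -0.23 and Pklr by -0.67, and Scd1 was saturated on both arrays. Srebf1, which drives these genes, was near background with levels of 7.41 and 12.8.

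Triglyceride synthesis had 3 of 13 genes higher, Mogat1 (1.57), Agpat2 (1.39) and Gpd1, with a list median of 0.69 and 0 lower. The acyltransferases Dgat2, Dgat1 and Agpat1 differed by 0.59, -0.33 and -0.55. Mogat1, a monoacylglycerol acyltransferase of fatty liver, read 88.4 on WT chow, 320 on high-fat diet, 397 on high-fat diet with NDGA, 180 on the ob/ob chow array and 632 on the ob/ob NDGA array. Of 17 lipid droplet genes 4 were higher and 0 lower, but the list median was 0.16. Cidea, which fuses lipid droplets and marks steatotic liver, read 118 on WT chow, 488 on high-fat diet, 1127 on high-fat diet with NDGA, 1279 on the ob/ob chow array and 5057 on the ob/ob NDGA array, a difference of 1.94. It was lowest in lean WT liver and each NDGA array exceeded its own diet control. Hsd17b11 (1.43), Plin4 (1.41) and Fitm1 (1.25) were the other 3. Cidec differed by 0.71 and Plin2, the main droplet coat protein of hepatocytes, by 0.30. Other droplet proteins did not stand apart, Plin5 at -0.12, Cideb at -0.23 and Bscl2 at -0.50, and neither did the lipases and their partners, Mgll at 0.23, Pnpla2 at 0.16, G0s2 at -0.05 and Lipe at -0.34. Under housekeeping scaling the droplet list's median was -0.10, and those of lipogenesis and triglyceride synthesis were 0.31 and 0.27.

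Cholesterol synthesis had 5 of 15 expressed genes higher and 0 lower, with a median of 0.65. Msmo1, which demethylates sterols, read 629 on WT chow, 1344 on high-fat diet, 1725 on high-fat diet with NDGA, 417 on the ob/ob chow array and 1573 on the ob/ob NDGA array. The ob/ob chow array was the lowest of the 5, and the difference was 1.80. Tm7sf2 differed by 1.62, Nsdhl by 1.39, Idi1 by 1.38 and Sc5d by 1.04, and all act after mevalonate. Fdps differed by 0.24 and Cyp51 by 0.06, and Srebf2, the factor that drives the pathway, by -0.77. For Nsdhl the 2 expressed probes read 1.39 and 1.95.

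Bile acid synthesis and transport had 3 of 24 expressed genes higher (12.5%) and 0 lower, beside 6.75% and 0.506% of all genes. The list median was 0.19. Cyp7a1, which takes the first step from cholesterol to bile acids, read 343 on WT chow, 554 on high-fat diet, 1698 on high-fat diet with NDGA, 172 on the ob/ob chow array and 612 on the ob/ob NDGA array. The ob/ob chow array was the lowest and ob/ob NDGA the second highest, and the difference was 1.57. Abcb4, which exports phospholipid into bile, differed by 1.65 and Abcc3, an exporter of conjugates to blood, by 1.45. Cyp8b1, which makes cholic acid, differed by 0.16 and Cyp27a1, which starts the acidic route, by 0.41. Cyp7b1 was low on both ob/ob arrays, at 106 and 155 against 509 to 1083 on the WT arrays. The receptor Nr1h4 (FXR) and its target Nr0b2 differed by -0.04 and 0.03. Among 18 apolipoprotein and assembly genes Apoc3, an inhibitor of triglyceride clearance, differed by 1.27 and Pltp, the phospholipid transfer protein, by 1.05, while Apob differed by -0.64. Pltp read 3330 on WT chow, 1513 on high-fat diet, 3305 on high-fat diet with NDGA, 1572 on the ob/ob chow array and 3312 on the ob/ob NDGA array, so the 2 NDGA arrays and WT chow were alike and the remaining arrays were lower.

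Osgin1 read 12437 on WT chow, 8397 on high-fat diet, 2961 on high-fat diet with NDGA, 12271 on the ob/ob chow array and 2391 on the ob/ob NDGA array. Both NDGA arrays were below all arrays without NDGA, and the ob/ob difference was -2.34, or 5.05-fold lower. It was the lone lower gene among 33 expressed NRF2 and antioxidant genes, whose median was 0.38. Of these genes 3 were higher (9.09%, beside 6.75% of all genes). The higher genes were Abcc3, Srxn1 (1.43), which reduces overoxidized peroxiredoxins, and Gstm3 (1.40), a glutathione transferase. Srxn1 read 297 on WT chow, 1022 on high-fat diet, 445 on high-fat diet with NDGA, 684 on the ob/ob chow array and 1927 on the ob/ob NDGA array, and its 3 probes ranged from 1.17 to 1.54. Gclm, a subunit of glutathione synthesis, differed by 0.84, Prdx1 by 0.76 and Txnrd1 by 0.49. Heme oxygenase (Hmox1) differed by -0.46, Slc7a11 by -0.60 (second probe -0.01) and Txn1 by -0.63.

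Conjugation and drug metabolism held the enzyme with the highest difference after Cyp4a14. Sult1a1, a phenol sulfotransferase, read 994 on WT chow, 1941 on high-fat diet, 1041 on high-fat diet with NDGA, 450 on the ob/ob chow array and 2438 on the ob/ob NDGA array, a difference of 2.31. The lowest and the highest of its 5 levels were the 2 ob/ob arrays. Of 13 conjugation genes, which are UGT and SULT genes with the methyltransferases Nnmt and Tpmt, 3 were higher and 0 lower. The others were the thiopurine methyltransferase Tpmt (1.27) and Ugt2b34 (1.23), and the median was 0.30. Among 20 genes of the CAR, PXR and AHR list, which holds receptors besides targets, the median was 0.27. In that list 3 were higher (15%, beside 6.75% of all genes). They were Abcc3, Gstt1 (1.19) and Nr1i3, which is CAR itself. Alas1, the first enzyme of heme synthesis, lay just under 2-fold at 1.00. The inducible Cyp2b10, a CAR target, differed by 0.08 at its brightest probe and by 1.57 at its second, so its probes disagree. Cyp1a2 differed by -0.23.

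Amino acid and glucose metabolism also held genes at least 2-fold higher and 0 lower, beside 6.75% and 0.506% of all genes. Of 46 genes of the urea cycle and amino acid breakdown 9 were higher and 0 lower, with a median of 0.46. Cps1, which starts the urea cycle, read 3288 on WT chow, 3494 on high-fat diet, 2093 on high-fat diet with NDGA, 1858 on the ob/ob chow array and 6215 on the ob/ob NDGA array, a difference of 1.72. The later urea cycle enzymes Asl (0.04), Arg1 (0.12) and Otc (-0.51) did not stand apart. Got2 and Gnmt each differed by 1.52, Hgd by 1.35, Aass by 1.28, Kynu by 1.11, Mat1a by 1.09, Gstz1 by 1.06 and Cbs by 1.02. Glycogen genes Ppp1r3b (1.32) and Gys2 (1.26) and the glucose-6-phosphate transporter Slc37a4 (1.08) were the 3 of 12 glucose-production genes that were higher. G6pc differed by -0.10 and Pck1 by 0.31. In glycolysis Pgk1 (1.52) and Hk2 (1.04) were the 2 of 13 that were higher.

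Igfbp1, which binds IGF-1 and is repressed by insulin, read 121 on WT chow, 259 on high-fat diet, 166 on high-fat diet with NDGA, 212 on the ob/ob chow array and 993 on the ob/ob NDGA array, a difference of 1.99. It was the lone higher gene among 13 of the leptin, insulin and IGF axis (7.69%, beside 6.75% of all genes). The median of that list was 0.04. The leptin receptor (Lepr) differed by 0.94 at its brightest probe, with 354 on ob/ob chow and 724 with NDGA, but by -0.15 at its second. The insulin receptor (Insr) differed by -0.88. Lep was near background on both ob/ob arrays (5.91 and 7.06), as on the WT arrays (10.1 to 17.5), so the probe does not check the genotype in liver. The lipoxygenase and eicosanoid list, which holds the enzymes NDGA is known to inhibit, had 0 of 16 expressed genes higher and 0 lower. The shares over all genes were 6.75% and 0.506%, and the list median was -0.19. Alox5 read 369 on WT chow, 211 on high-fat diet, 292 on high-fat diet with NDGA, 341 on the ob/ob chow array and 195 on the ob/ob NDGA array, a difference of -0.67. Its partner Alox5ap differed by -0.50, and Alox15 was near background. Of 9 AMPK subunits, upstream kinases and related genes 0 were higher and 0 lower. At 6.75% and 0.506% over all genes, this says little about so short a list. The related gene Fnip1 differed by 0.99, and the subunits Prkaa2 by 0.42 and Prkaa1 by -0.89.

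**Figure D3:**
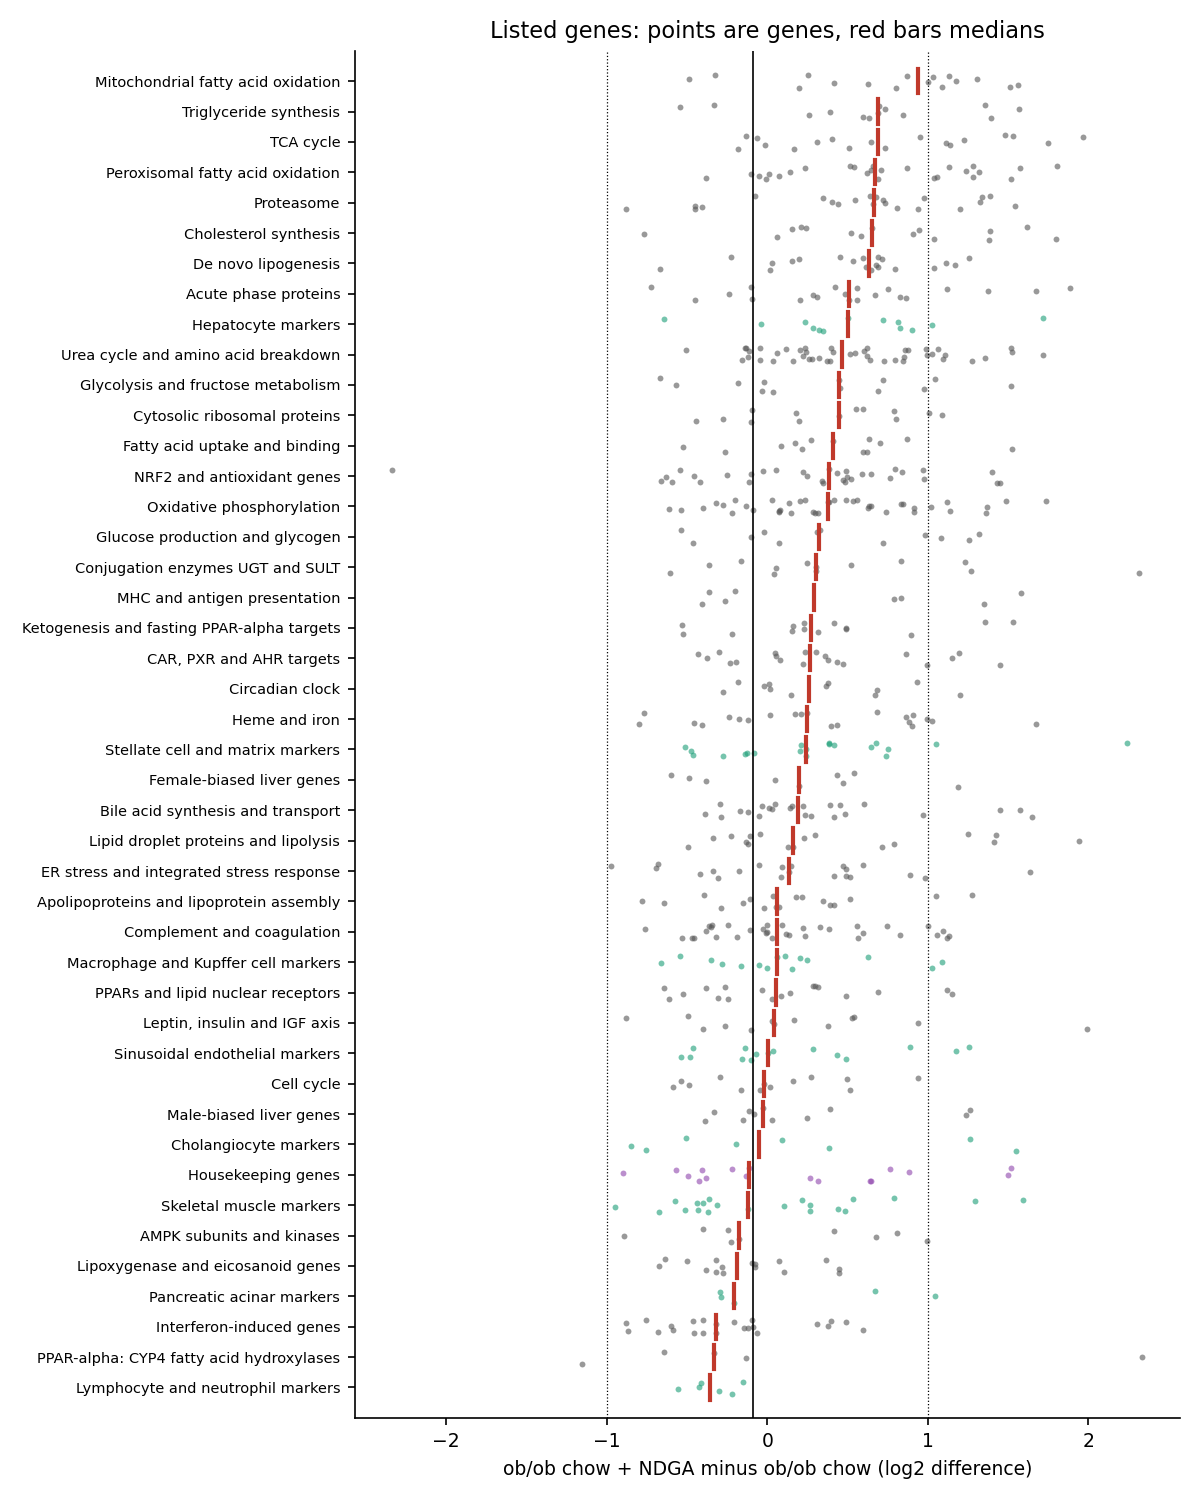
Points are the expressed genes of each list with 5 or more such genes, placed at their log2 difference between ob/ob NDGA and ob/ob chow (grey, pathways; purple, housekeeping genes; green, cell type markers); red bars are list medians, the solid line the median of all genes (-0.09) and the dotted lines 2-fold. Mitochondrial fatty acid oxidation has the highest median (0.94), and interferon-induced genes have a median of -0.32.

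Proteins secreted by hepatocytes and protein-handling genes showed a mixed pattern. Of 21 acute phase genes 4 were higher and 0 lower, with a median of 0.51: the metallothionein Mt2 (1.88), the copper carrier Cp (1.67), Itih3 (1.38) and the iron-scavenging Lcn2 (1.12). Mt2 read 1551 on WT chow, 5751 on high-fat diet, 6400 on high-fat diet with NDGA, 2416 on the ob/ob chow array and 9059 on the ob/ob NDGA array. The fibrinogen chains read lower, Fgb by a difference of -0.72 and Fgg of -0.45, and the second probe of Cp read -0.04. Of 34 complement and coagulation genes 5 were higher (14.7%) and 0 lower, beside 6.75% and 0.506% of all genes, with a list median of 0.06. The proteasome had 5 of 22 genes higher, Psmc1 (1.54), Psmd8 (1.39), Psmc3 (1.34), Psmd13 (1.32) and Psmb5 (1.20), and 0 lower, with a median of 0.67. Psmb8, the interferon-induced catalytic subunit, differed by -0.88. Among 21 ER stress genes Pdia4, a disulfide isomerase, was the lone higher gene (4.76%, beside 6.75% of all genes). It differed by 1.64, with levels of 75.5 on the ob/ob chow array and 340 on the ob/ob NDGA array. Xbp1, a factor of the unfolded protein response, differed by -0.97 and Hspa5, its main chaperone target, by -0.17. Interferon-induced genes had 0 of 23 higher and 0 lower, beside 6.75% and 0.506% of all genes. Their median was -0.32, beside -0.09 for all genes, and 5 of the 23 were above 0. Bst2 differed by -0.87, Irf1 by -0.75 and Cxcl9 by -0.68 (second probe -0.05), while Igtp (0.60) and Isg20 (0.49) had the highest differences.

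Markers of cell types were read because a bulk liver array cannot tell fewer cells of a type from less RNA per cell. Over all genes 6.75% were higher and 0.506% lower, and the counts of these short lists stand beside those shares. The hepatocyte list had 2 of 13 expressed markers higher (Cps1 and transferrin, Trf, 1.03) and 0 lower, with a median of 0.50 and a summed level of 366422 on the ob/ob chow array and 418344 on the ob/ob NDGA array against 368539 to 388330 on the WT arrays. Sums run over all named markers of a list. The defining hepatocyte markers Alb and Asgr1 were among the brightest probes on both arrays. Alb, Asgr1, Apoa1 and Rbp4 were saturated on the ob/ob NDGA array and Ahsg on both ob/ob arrays. The hepatocyte sums are thus capped. The median of 0.50 is that of the saturated Rbp4 and is uncertain in either direction. After quantile normalization the level of a saturated probe follows its rank among saturated probes. Leaving out markers saturated on either array gave a median of 0.82. Of 15 macrophage markers 2 were higher, Adgre1 (1.09) and Mpeg1 (1.03), with a median of 0.06 and a summed level of 16448 and 14982. The defining Kupffer cell markers Clec4f, Timd4 and Vsig4 differed by 0.06, -0.54 and -0.66. Stellate cell and matrix markers had 2 of 20 higher, Col4a1 (1.05) and Col6a3, with a median of 0.24 and a summed level of 23119 and 26685. For Col6a3 the mean over its probes was 0.81 against 2.24 for the brightest probe. Sinusoidal endothelial markers had Dpp4 (1.26) and Ptprb (1.18) higher of 15, a median of 0.01 and a summed level of 34636 and 27661. Keratins Krt8 (1.55) and Krt18 (1.26), shared by hepatocytes and bile duct cells, were the 2 of 8 cholangiocyte markers that were higher, whereas Krt19, Krt7 and Sox9 differed by 0.09, -0.19 and -0.85. Of 6 lymphocyte and neutrophil markers 0 were called, but 0 were above 0. Their median was -0.36 and their summed level 2495 on the ob/ob chow array and 1908 on the ob/ob NDGA array. Of 2 red cell markers 0 were called. Lists this short say little at the shares over all genes. Fat cell markers had 1 of 4 expressed members higher, Car3 (1.03, second probe 0.28), with a median of 0.67. Their summed level was 13625 and 23192, against 8990 to 16856 on the WT arrays. Car3 alone read 3550 and 7285, Cfd, below the expression limit, differed by 1.18, and the defining fat cell markers Adipoq (-0.32), Fabp4 (-0.03) and Plin1 (0.02) were below the limit. The part of fat cell markers in the lipid gene results was not tested.

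Housekeeping genes were not level. Of 17 expressed members 2 were higher, Pgk1 and Hprt (1.50), and 0 lower, beside 6.75% and 0.506% of all genes. The members ranged from -0.90 (Eef2, second probe 0.03) to 1.52. Olfactory receptor genes, which liver should not express, had 1 of 156 higher (Olfr1338), 3 lower and a median of -0.41, against 0.47 for the same family in the WT NDGA comparison. Their part in the balance of higher and lower calls was not tested.

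The second NDGA comparison of the study, WT high-fat diet with NDGA minus WT high-fat diet, shares no array with the ob/ob pair. Over its own 8304 expressed genes 0.903% were higher and 1.57% lower. Of 8056 genes expressed in both, 533 were higher and 38 lower in ob/ob (6.62% and 0.472%), and 60 higher and 126 lower in WT (0.745% and 1.56%). Only 7 were higher in both (1.31% of the ob/ob list, 11.7% of the WT list) and 3 lower in both (7.89% and 2.38%). By contrast 40 were higher in ob/ob and lower in WT (7.50% and 31.7%), and 3 were lower in ob/ob and higher in WT. Across genes the differences had a Pearson r of -0.57 and a Spearman rho of -0.64, where the points are 8056 genes of the same 4 arrays, normalized together. Which pair was the higher one among opposite calls depended on scaling. With housekeeping scaling 206 genes were lower in ob/ob and higher in WT and 1 was the reverse, while 8 were higher in both and 5 lower in both. Pearson r was -0.57 there, which a constant shift per array cannot change, and -0.56 with loess.

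Genes higher in both were Cyp4a14 (2.34 in ob/ob, 1.13 in WT), Cidea (1.94 and 1.13), Cyp7a1 (1.57 and 1.53), Ehhadh (1.57 and 1.34) and Pltp (1.05 and 1.10), together with the muscle genes Mylpf (1.59 and 2.94) and Mb (1.29 and 2.95). Mylpf, a myosin light chain, read 38.0 on WT chow, 49.2 on high-fat diet, 712 on high-fat diet with NDGA, 50.5 on the ob/ob chow array and 253 on the ob/ob NDGA array. Muscle markers as a list had 2 of 21 higher in ob/ob (9.52%, beside 6.75% of all genes), with a median of -0.12. In WT 14 of 25 were higher, beside 0.903% of all genes, with a median of 1.27. Some muscle markers below the expression limit in ob/ob had differences above 0 with NDGA as well. Ckm, the muscle creatine kinase, read 13.6 on the ob/ob chow array and 223 on the ob/ob NDGA array (2.10). Cox6a2 differed by 1.70, Ckmt2 by 1.63 and the actin Acta1 by 0.65. Others were below 0 without passing 2-fold, among them Ttn (-0.95, second probe 0.06), Myh1 (-0.67) and Pygm (-0.57). Their summed level was 11679 on the ob/ob chow array and 11035 on the ob/ob NDGA array, against 26288 on the WT NDGA array and 9494 and 11706 on the other WT arrays. Their part in the shared genes was not tested.

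Genes lower in both were Osgin1 (-2.34 in ob/ob, -1.49 in WT), Sdr9c7 (-1.29 and -1.72) and Id3 (-1.20 and -1.04). Sdr9c7, a short-chain dehydrogenase of the retinol dehydrogenase family, read 1509 on WT chow, 1300 on high-fat diet, 359 on high-fat diet with NDGA, 795 on the ob/ob chow array and 296 on the ob/ob NDGA array. Id3, an inhibitor of DNA binding that BMP signals induce, read 9112, 9450 and 4568 on the same WT arrays, 19780 on the ob/ob chow array and 8589 on the ob/ob NDGA array. The ob/ob chow array was the highest of the 5 for Id3, and the ob/ob NDGA array was near the WT arrays without NDGA. Without normalization the ob/ob differences of Sdr9c7 and Id3 shrank to -0.47 and -0.13, while that of Osgin1 stayed at -1.35. Id1, a related gene, differed by -0.80 in ob/ob.

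**Figure D4:**
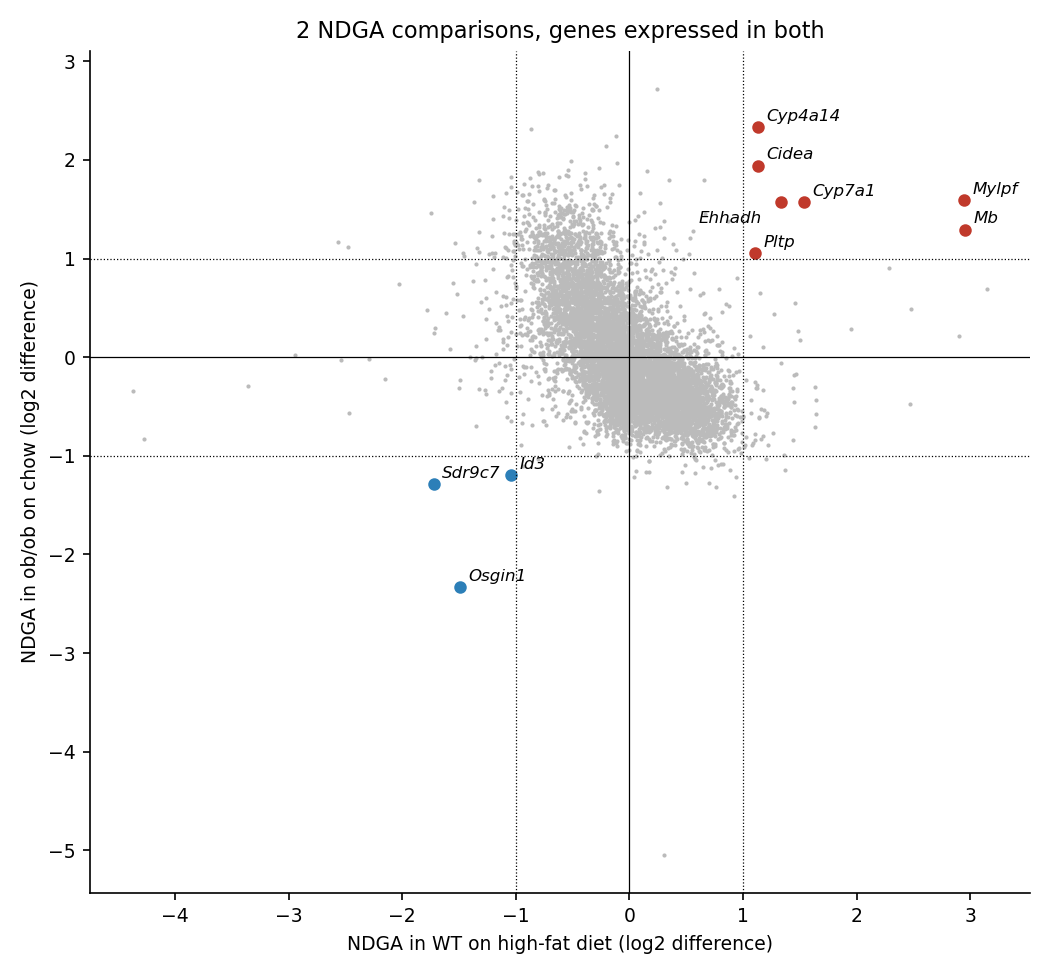
Each point is a gene expressed in both NDGA comparisons (8056 genes), with the log2 difference in WT on high-fat diet on the horizontal axis and that in ob/ob on chow on the vertical axis; dotted lines mark 2-fold. Most of the cloud runs from upper left to lower right (Pearson r -0.57), and the named genes at upper right and lower left are the 10 that passed 2-fold the same way in both.

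Agreement between probes gives a measure of the spread between probes of a gene, and not of errors that all probes of an array share. Among 933 genes with 2 or more expressed probes, the 2 brightest probes had a correlation of 0.32 across genes. The SD of the gap between their differences, divided by the square root of 2 to give a value per probe, was 0.46. Of the higher genes 60 had 2 or more such probes: in 14 all were at least 2-fold higher, in 43 all were above 0 and in 17 a probe was at or below 0. The 14 included Upp2, a uridine phosphorylase known to respond to PPAR-alpha (probes from 1.15 to 2.23), Nsdhl, the immediate-early factor Klf6 (1.36 and 1.49), Mrpl1 of the mitochondrial ribosome (1.22 and 1.55), Srxn1, Etfa (1.09 and 1.31), Noct, a rhythmic dinucleotide phosphatase (1.18 and 1.27), and Fmo5 (1.09 and 1.11). The remaining 6 were Tprkb, Tmem106b, Rps3, Celf2, Xrn2 and Thoc7, with mean differences from 1.08 to 1.35. Of the lower genes 5 had several expressed probes and in 0 were all at least 2-fold lower; Tarbp2 came nearest, at -1.17 and -0.89.

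**Figure D5:**
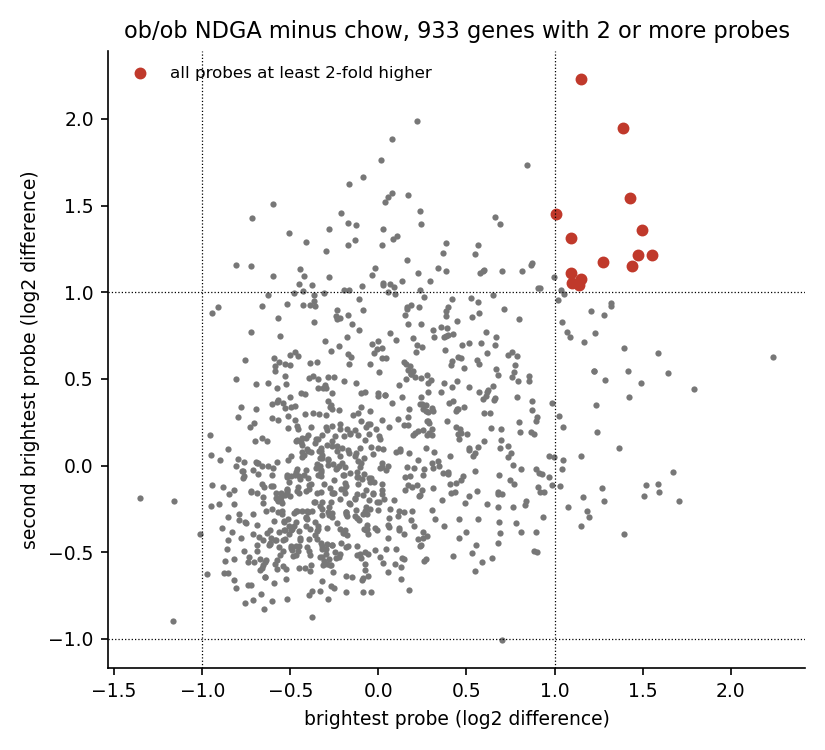
Each point is 1 of 933 genes with 2 or more expressed probes, with the log2 difference (ob/ob NDGA minus chow) of its brightest probe on the horizontal axis and of its second brightest on the vertical axis. The 14 red genes had all probes at least 2-fold higher, and many genes above 1 on one axis lie near 0 on the other (r 0.32).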

How the data were processed

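Liver RNA of 5 mouse groups was labelled with Cy5 and hybridised to Phalanx Mouse OneArray V1 slides, per the labels' protocols. The authors deposited 1 linear intensity per probe and array; scanner settings, background correction and scaling, not given in the sources used here, remain unknown. The table held 29922 probes. The platform annotation named 21020 by 1 gene symbol, of which 17558 were current, 3410 were updated through RefSeq (GRCm38.p6) and 52 kept, while 8902 probes had no usable name. No column was left out. Arrays were quantile-normalized together, log2(intensity + 50) was taken, and each gene took its brightest probe, by the mean of all 5 arrays. Filter, threshold and saturation limit are as given above. No test was run, since each group has 1 array, so the number of arrays limits the precision first, besides the spread between probes of a gene, the scaling, saturation and the offset. The members and lists (46 lists, including housekeeping genes and 10 cell types) were chosen with earlier results of these data known. Genes named were the 12 highest and 12 lowest, up to 12 a direction with every expressed probe at least 2-fold apart, up to 6 with the largest difference per list and families of at most 12 in full, up to 12 a direction passing in both NDGA comparisons, and a set of lipid, leptin and lipoxygenase genes; others were added after their values were seen. Alternatives were 10 planned settings (scaling, offset of 16, filter, probe averaging, floor, saturation) and 3 chosen after seeing the data: scaling to olfactory receptor genes, centring the differences of expressed housekeeping genes on 0, and leaving out probes at least 4-fold brighter on 1 array. The steps were run on simulated data with equal numbers of large rises and falls and less noise than the probes here showed. That run gives no accuracy for the calls above. Python 3.11.15, numpy 2.4.6, pandas 2.3.3, statsmodels 0.14.6 (loess with span 0.3) and matplotlib 3.10.9 were used.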

Additional observations from a re-analysis of the deposited data

Results flagged for a closer look

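Genes with opposite differences in the 2 NDGA comparisons numbered 40 (at least 2-fold higher in ob/ob on chow and lower in WT on high-fat diet) and 3 (the reverse, Rtn4rl2, Tesc and Nwd1). Each comparison rests on 1 array a side, and the difference between them was not tested. Among listed genes those higher in ob/ob were Pdia4 (1.64 against -1.20 in WT), the antioxidant genes Srxn1 (1.43 against -1.12) and Gstm3 (1.40 against -1.20), the male-biased Cyp2d9 (1.26 against -1.33) and Krt18 (1.26 against -1.11). The same held for Acly (1.12 against -1.09), Lcn2 (1.12 against -2.48), Kynu (1.11 against -1.08) and the complement gene C9 (1.05 against -1.47). Non-parenchymal markers with this pattern were Adgre1 (1.09 against -1.07), Mpeg1 (1.03 against -1.46) and Col4a1 (1.05 against -1.21). Lcn2 read 60.6 on WT chow, 1221 on high-fat diet, 178 on high-fat diet with NDGA, 374 on the ob/ob chow array and 873 on the ob/ob NDGA array, so its levels without NDGA differed widely between the pairs.

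Probes without a usable gene name, which no comparison uses, included 2462 that passed the same filter. Of these, NDGA in ob/ob read at least 2-fold higher for 105 and lower for 14, a share of 4.26% higher, and their median was -0.27.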

How the results depend on the processing

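The number of higher genes, 561 with quantile normalization, was 2698 without normalization, 1242 with median scaling, 135 with housekeeping scaling, 2236 with olfactory receptor scaling (chosen after seeing the data) and 308 when the filter was set at the 75th percentile, which tests fewer genes. The number of lower genes, 42, was 5, 6, 1302 and 6 under the same 4 scalings, 18 with loess and 18 with housekeeping genes centred on 0 (chosen after seeing the data). The number of genes apart in the same direction in both NDGA comparisons, 10, was 16 without normalization and 6 at the 75th percentile filter. Other settings kept these counts within 1.5 times: centring housekeeping genes gave 665 higher, an offset of 16 gave 718 higher and 61 lower, no filter 624 and 48 of 16626 genes, and the mean of probes 486 and 32. Leaving out probes at least 4-fold brighter on 1 array gave 558 and 39. Of 35 list medians, 13 were above 0 under all 5 scalings. Housekeeping scaling lowered the median of all genes by 0.46 relative to quantile normalization, and of the differences of named genes none at least 2-fold in size turned sign under any setting run. No paired analysis was possible because each group has 1 array. Leaving out an array leaves no comparison. Depth in arrays is signal over background: 53.1% to 54.1% of probes on the arrays without NDGA, 50.9% on the WT NDGA array and 45.1% on the ob/ob NDGA array read below an intensity of 50, so differences of dim genes are understated by the offset.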

Other observations

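Several groups of genes not described above are given here beside the 6.75% of all expressed genes that were higher with NDGA in ob/ob liver. Of 21 heme and iron genes 2 were higher (9.52%), Cp and transferrin (Trf, 1.03), with a median of 0.25, while Tfr2, a sensor of iron-loaded transferrin, differed by -0.77 and the iron hormone Hamp by -0.24. Of 12 clock genes Dbp, an output of the clock, was the lone higher gene at 1.20 (8.33%), and the core genes Arntl, Per2 and Nr1d2 differed by 0.02, 0.01 and -0.28; the hour of sampling is not in the labels. Of 13 cell cycle genes 0 were higher and 0 lower, with a median of -0.02, and Mcm6 (0.94), of the replication helicase, had the highest difference. Among 8 antigen presentation genes H2-T23 (1.58) and Cd74 (1.35) were higher (25%), whereas B2m differed by -0.41. Of 13 ribosomal protein genes Rpl4 (1.09) and Rps3 (1.01) were higher (15.4%), with a median of 0.45.

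Sex-biased liver genes, which growth hormone pulses control, included some that differed widely between WT chow and the other 4 arrays. Hsd3b5, a male-biased steroid dehydrogenase, read 11690 on WT chow, 367 on high-fat diet, 453 on high-fat diet with NDGA, 248 on the ob/ob chow array and 231 on the ob/ob NDGA array. Every array but WT chow was low, and the NDGA difference in ob/ob was -0.09. Cyp2b9, a female-biased gene, read 1743 on WT chow and 13905 to 20659 on the other 4 arrays, with an ob/ob difference of 0.05. Of 11 male-biased genes Cyp2d9 (1.26) and Nudt7 (1.24) were higher (18.2%), and of 9 female-biased genes Cyp17a1 (1.19) was (11.1%).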
